A study of Drosophila melanogaster with 6 samples.

Results

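The 7 genes described here are moody, loco, Mdr65, Gli, Nrx-IV, nrv2 and Tret1-1, genes of the surface glia and the blood-brain barrier of the fly. They were chosen by name and found by gene identifier among the 17490 genes of the count table, and all 7 were detected in every library. RNA was taken from whole brains of Drosophila melanogaster larvae of the 3rd instar, the last larval stage. In every library analysed, elav-Gal4, a driver used for expression in neurons, drove an RNAi line for DMAP1, which encodes a chromatin remodelling protein. Whether the driver was also active in glia was not tested. The labels give this genotype for all 6 samples and name no further allele, sex or number of animals per sample.

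The column names of the count table divide the 6 libraries into the series DMAP1RNAi103734 and DMAP1RNAi63666, with 3 libraries each, and no label explains these names. Whether both series used the same RNAi line is not stated, and the genes w, y and v separate them, as given below. The wild-type columns of the table match no labelled sample and were not analysed here, so each value below is a level under RNAi or a difference between the series, never an effect of the knockdown. No label says that the libraries came from separate animals, so the p-values rest on a spread between libraries that may be technical.

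The fly brain is sealed from the potassium-rich blood by a sheet of surface glia that has an outer perineurial and an inner subperineurial layer. Subperineurial cells are joined by septate junctions, ladder-like contacts that close the space between cells, and they carry pumps that expel foreign compounds, while perineurial cells take up sugar from the blood. Septate junctions also form around axons, in ectodermal epithelia and in the tracheal tube, so several of these genes are not restricted to surface glia. In whole-brain RNA, fewer cells of a type and less RNA per cell cannot be told apart.

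Libraries held 31518485 to 37236953 counts, so that 1 count equalled 0.0269 to 0.0317 CPM (counts rescaled to a library total of 1000000). Library 1 of the DMAP1RNAi63666 series stood apart: it had the fewest detected genes (12855, against 13095 to 13181 in the others), the highest mitochondrial share (10.9%) and the lowest TMM factor, a scaling factor for library composition (0.915, against 1.001 to 1.039). Genes of the mitochondrial genome took 6.88 to 7.1% of the counts in the DMAP1RNAi103734 series and 8.18 to 10.9% in the other. The RNAi target DMAP1 stood at 11.7 to 13.8 CPM in the DMAP1RNAi103734 series and at 7.08 to 8.42 CPM in the DMAP1RNAi63666 series. The pigment gene w separated the series completely, at 1562 to 1862 against 46.6 to 64.3 CPM. The genes y and v, outside the naming rule, did so in the other direction. y stood at 4.89 to 5.61 against 145 to 208 CPM, and v at 0.401 to 0.583 against 5.15 to 6.71 CPM. Each series difference below is thus between libraries that also differ in these genes, and a part of genetic background was not tested. Neuron markers were abundant in all libraries, and summed fat body markers were highest in library 2 of the DMAP1RNAi103734 series, at 557 CPM against 34.4 to 146 CPM in the other 5 libraries.

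The 7 genes differed widely in level, and their order by length-scaled level was the same in all 6 libraries. Per length, in TPM (counts divided by exon length and rescaled to the same total), nrv2 was highest at 769.5 ± 90.7 TPM (SD, n = 6), followed by Mdr65 at 419.9 ± 85.8 and Nrx-IV at 183 ± 11.8. Next came moody at 64.4 ± 7.68, Tret1-1 at 41.7 ± 4.93, Gli at 23.8 ± 3.53 and loco at 15.7 ± 2.63 TPM. The mean level of nrv2 was 49.1 times that of loco, and nrv2 with Mdr65 made up 74.4 to 81% of the summed TPM of the 7 genes. Among the 10270 genes tested below, whose median was 30.1 TPM, nrv2 lay at percentile 98.5, Mdr65 at 97.5, Nrx-IV at 92.7, moody at 75.1, Tret1-1 at 60.9, Gli at 42.8 and loco at 32.9.

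**Figure D1:**
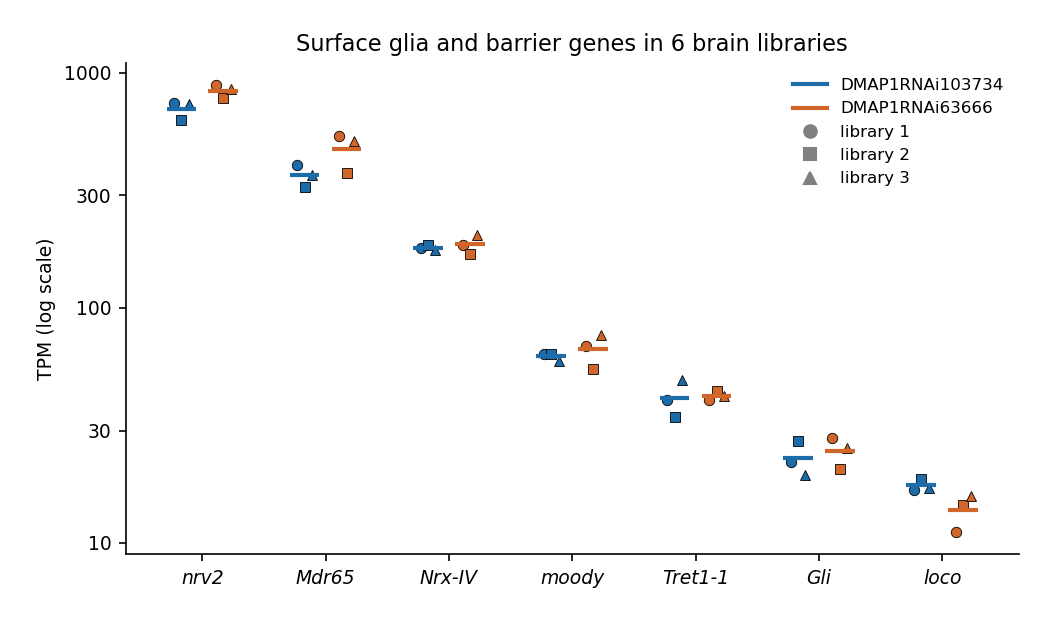
Level of each gene in TPM (log axis) in the 6 libraries, with the series in colour, the library number as symbol and the series mean as a bar. The genes run from nrv2 at 626 to 882 TPM down to loco at 11.1 to 18.7 TPM, and no neighbours in the order overlap.

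No neighbours in this order overlapped over the 6 libraries. Taken within each library, the log2 TPM of nrv2 exceeded that of Mdr65 by 0.89 ± 0.15 (SD, n = 6), Mdr65 exceeded Nrx-IV by 1.18 ± 0.24, and Nrx-IV exceeded moody by 1.51 ± 0.08, the widest and steadiest step. The lower steps were less even: 0.63 ± 0.28 from moody to Tret1-1, 0.82 ± 0.37 from Tret1-1 to Gli and 0.61 ± 0.39 from Gli to loco, the last ranging from 0.19 to 1.32 between libraries. Each step had the same sign in 6 of 6 libraries. Without length scaling, loco lay above Gli, at 51.7 ± 9.55 against 45.5 ± 6.61 CPM (SD, n = 6) and in 5 of 6 libraries, the exception being library 1 of the DMAP1RNAi63666 series. The exons of loco sum to 7671 bases and those of Gli to 4468. Exon length is summed over all transcripts of a gene, so a gene that uses mainly a short transcript reads too low in TPM.

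moody encodes a G protein-coupled receptor of subperineurial glia that is needed to keep the barrier closed. The gene (FBgn0025631) lies on chromosome X at 2044292 to 2050120, minus strand, in BDGP6 coordinates, which also apply to the genes below. It stood at 105, 111 and 102 CPM in libraries 1, 2 and 3 of the DMAP1RNAi103734 series and at 112, 93.6 and 128 CPM in those of the DMAP1RNAi63666 series. The second series held both the highest and the lowest library and overlapped the first. The log2 difference, DMAP1RNAi63666 minus DMAP1RNAi103734, was 0.15 (SE 0.12, 95% interval -0.13 to 0.42, adjusted p = 0.48 in edgeR's quasi-likelihood test). Without library 1, 2 or 3 of the DMAP1RNAi63666 series it was 0.09, 0.27 or 0.07.

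loco encodes a regulator of G protein signalling that acts with moody, switching off the G protein alpha subunit. It lies on chromosome 3R at 22619968 to 22639387, minus strand (FBgn0020278). An antisense RNA, asRNA:CR43474, covers 13.5% of its exon bases on the other strand, and with strand-specific counting that RNA had 0 to 1 counts per library. loco stood at 54.3, 63.7 and 57.1 CPM in libraries 1, 2 and 3 of the DMAP1RNAi103734 series and at 35.4, 48.2 and 51.2 CPM in those of the DMAP1RNAi63666 series. All 3 libraries of the DMAP1RNAi63666 series lay below all 3 of the other, library 1 by the widest margin, and non-overlap in that direction was seen for 20.2% of the genes tested. The log2 difference was -0.31 (SE 0.12, 95% interval -0.58 to -0.04) with an unadjusted p of 0.029, and it did not pass over all genes (adjusted p = 0.17 in edgeR). It was the only one of the 7 genes with a negative difference.

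Mdr65 encodes an ABC transporter of the P-glycoprotein family that pumps foreign compounds out at the barrier. The gene (FBgn0004513) lies on chromosome 3L at 6240500 to 6245746, minus strand, with 1 annotated transcript. It stood at 704, 599.5 and 658 CPM in libraries 1, 2 and 3 of the DMAP1RNAi103734 series and at 923, 670.1 and 897 CPM in those of the DMAP1RNAi63666 series. Libraries 1 and 3 of the second series were the highest of the 6, while its library 2 fell within the range of the first series. Mdr65 had the largest log2 difference of the 7 genes, 0.42 (SE 0.16, 95% interval 0.05 to 0.79), or 1.34-fold, with an unadjusted p of 0.029 and an adjusted p of 0.17 in edgeR. Without library 2 of the DMAP1RNAi63666 series the difference was 0.57 (adjusted p = 0.053), and without library 1 of that series it was 0.28 (adjusted p = 0.34).

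Of its paralogues, named for their family and not by value, Mdr49 stood at 4.54 ± 1.04 TPM (SD, n = 6) and Mdr50 at 0.0469 to 0.194 TPM, from 3 to 13 counts per library. Mdr65 was therefore the most abundant of these genes in all 6 libraries, and its mean TPM was 92.4 times that of Mdr49. Other genes of the transporter family were not compared.

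nrv2 and Nrx-IV belong to the septate junction. nrv2 encodes a beta subunit of the sodium-potassium ATPase, which has a role in septate junctions beside ion transport and is also found in cortex, ensheathing and wrapping glia. It lies on chromosome 2L at 6789770 to 6798862, minus strand (FBgn0015777). The gene stood at 1115, 993 and 1148 CPM in libraries 1, 2 and 3 of the DMAP1RNAi103734 series and at 1305, 1212 and 1280.3 CPM in those of the DMAP1RNAi63666 series. All 3 libraries of the second series lay above all 3 of the first, a pattern seen in that direction for 12.2% of the genes tested. The log2 difference was 0.30 (SE 0.12, 95% interval 0.03 to 0.57), or 1.23-fold, with an unadjusted p of 0.035 and an adjusted p of 0.18 in edgeR. Its neighbour nrv1, another beta subunit gene 2908 bases away on the same strand, stood at 36.7 ± 2.81 TPM (SD, n = 6), and the mean TPM of nrv2 was 21 times higher. Atpalpha, the catalytic subunit that pairs with these beta subunits, was the most abundant gene of the septate junction list at 1723 TPM and had a log2 difference of 0.29 (SE 0.15, adjusted p = 0.26 in edgeR).

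Nrx-IV encodes Neurexin IV, a transmembrane protein of the septate junction core. It lies on chromosome 3L at 12146519 to 12156990, plus strand (FBgn0013997), with 2 annotated transcripts. Values were 388, 421 and 392 CPM in libraries 1, 2 and 3 of the DMAP1RNAi103734 series and 395, 377 and 442 CPM in those of the DMAP1RNAi63666 series. This was the steadiest of the 7 genes, with an SD of 0.09 on the log2 CPM scale over the 6 libraries, lower than that of all but 11.8% of the genes tested. The series overlapped, with a log2 difference of 0.09 (SE 0.10, 95% interval -0.13 to 0.31, adjusted p = 0.58 in edgeR).

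Gli encodes Gliotactin, a neuroligin-like protein placed where the corners of neighbouring cells meet at the septate junction. The gene (FBgn0001987) lies on chromosome 2L at 15756002 to 15762758, minus strand. It stood at 41.3, 54 and 38 CPM in libraries 1, 2 and 3 of the DMAP1RNAi103734 series and at 51.7, 40.1 and 48 CPM in those of the DMAP1RNAi63666 series. Both series spanned nearly the same range, with the 2 highest libraries in different series. The log2 difference was 0.15 (SE 0.16, 95% interval -0.22 to 0.52, adjusted p = 0.58 in edgeR). With library 1 or 2 of the DMAP1RNAi63666 series left out it was 0.01 or 0.27, and with library 2 or 3 of the other left out it was 0.30 or 0.05.

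Tret1-1 encodes a transporter of trehalose, the main blood sugar of insects, and marks perineurial glia. It lies on chromosome 2R at 11665768 to 11674782, plus strand (FBgn0050035). Values were 57.1, 51.3 and 72.2 CPM in libraries 1, 2 and 3 of the DMAP1RNAi103734 series and 56.4, 65.2 and 60.0 CPM in those of the DMAP1RNAi63666 series. The first series held both the lowest and the highest library. The log2 difference was 0.08 (SE 0.13, 95% interval -0.22 to 0.38, adjusted p = 0.73 in edgeR), and it was -0.03 without library 2 of the DMAP1RNAi103734 series, its lowest library. Its neighbour Tret1-2, 1152 bases downstream on the same strand, had 1 to 4 counts per library, or 0.0387 to 0.18 TPM, and was too low to be tested.

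Between the series, none of the 7 genes passed an adjusted p of 0.05 in edgeR, against 158 of 10270 genes tested (1.54%). Unadjusted, 3 of the 7 genes (loco, Mdr65 and nrv2) had a p under 0.05, where 24.5% of all genes tested did. Of the 7 genes, 6 had a positive difference, beside 50.1% of all genes tested. The CPM ranges of the series did not overlap for 2 of the 7, loco and nrv2, beside 32.4% of all genes tested in either direction. DESeq2 also called none of the 7. Their median log2 difference was 0.15, beside 0.00 for all genes tested, and their median absolute difference was 0.15, beside 0.20. The 95% interval was narrowest for Nrx-IV, at -0.13 to 0.31, and those of loco, Mdr65 and nrv2 did not include 0 before adjustment over all genes.

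**Figure D2:**
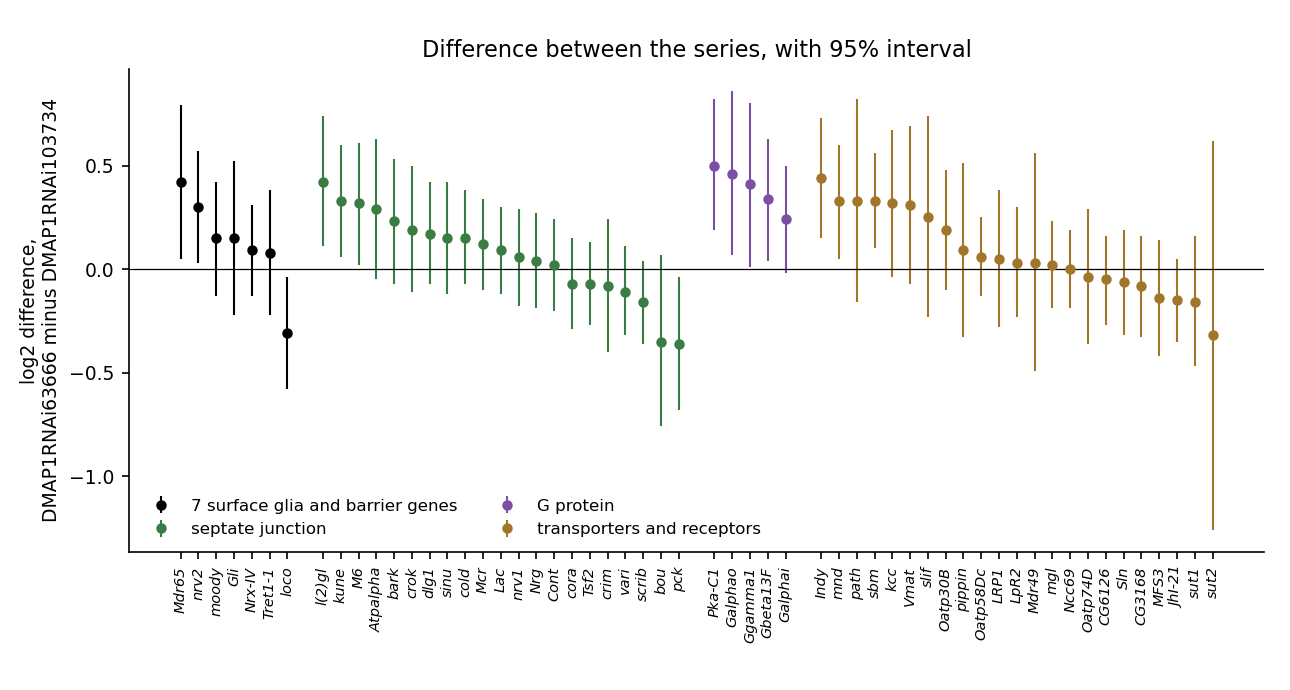
Log2 difference, DMAP1RNAi63666 minus DMAP1RNAi103734, with a 95% interval derived from the edgeR test, for the 7 genes and for the tested genes of 3 related lists. Values run from 0.42 for Mdr65 to -0.31 for loco among the 7 genes, and no gene shown passed an adjusted p of 0.05.

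The level of repo, the transcription factor that defines most glia, was 65.2 to 79.2 CPM in the DMAP1RNAi103734 series and 53.3 to 79.6 CPM in the other, and the series overlapped. Set against repo in the same library, a comparison added after the data were seen, Mdr65 had a mean log2 CPM ratio of 3.15 ± 0.26 (SD over 3 libraries of the DMAP1RNAi103734 series) against 3.74 ± 0.33 for the DMAP1RNAi63666 series, without overlap. Such non-overlap in the ratio to repo, in either direction, was found for 13.9% of the genes tested. The ratio of loco to repo was -0.33 ± 0.08 (SD, n = 3) and -0.47 ± 0.25, that of nrv2 was 3.88 ± 0.23 and 4.36 ± 0.32, and for these and the remaining 4 genes the series overlapped. The non-overlap of loco and nrv2 in CPM was thus not seen relative to repo. For loco the mean difference between the series was -0.14 relative to repo, beside -0.31 in edgeR. For nrv2 it was 0.48, beside 0.30 in edgeR, so its series overlapped relative to repo although the mean difference was larger.

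Among the libraries, the 7 genes did not move as a block. On the log2 CPM scale with TMM factors, which correct for library composition, their SD over the 6 libraries ran from 0.09 for Nrx-IV to 0.31 for Mdr65, beside a median of 0.21 over all genes tested. The range from lowest to highest library was 0.81 for Mdr65, 0.66 for loco, 0.61 for Gli, 0.58 for nrv2, 0.50 for Tret1-1, 0.44 for moody and 0.21 for Nrx-IV. Library 1 of the DMAP1RNAi63666 series was highest for Mdr65, Gli and nrv2 (by 0.46, 0.32 and 0.29 above the mean of the gene) and lowest for loco (-0.39). Library 2 of the DMAP1RNAi103734 series showed the reverse for 3 of these, lowest for Mdr65 and nrv2 (-0.34 and -0.29) and highest for loco (0.27). It was also lowest for Tret1-1 (-0.28). For Gli the scale mattered, since without TMM factors library 2 of the DMAP1RNAi103734 series was highest, at 54 CPM. Library 3 of the DMAP1RNAi63666 series was highest for moody and Nrx-IV (0.23 and 0.12), and library 2 of that series lowest for both (-0.21 and -0.09).

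**Figure D3:**
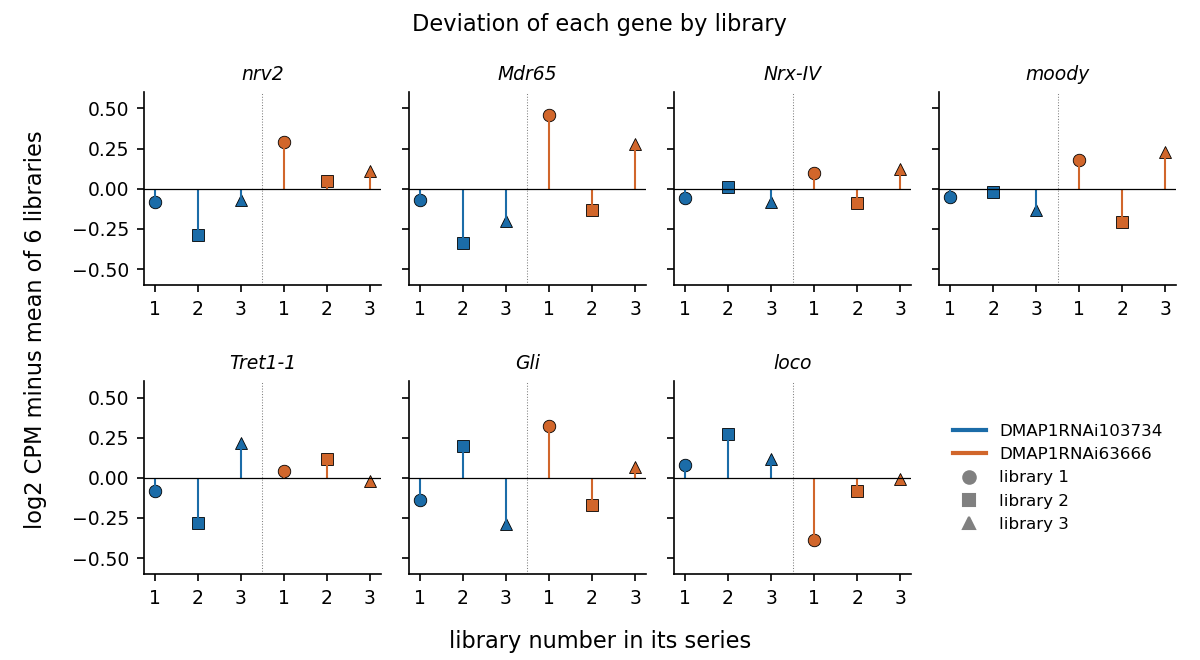
Deviation of log2 CPM from the mean of the gene over the 6 libraries, by library, with the series in colour and separated by a dotted line. Mdr65 and nrv2 share a pattern with its peak in library 1 of the DMAP1RNAi63666 series, loco is lowest in that library, and Nrx-IV stays within -0.09 and 0.12.

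Of the 21 pairs among the 7 genes, 12 had a positive Pearson r of log2 CPM over the 6 libraries, with a median of 0.28. The closest pair was moody and Nrx-IV, with r = 0.97 and Spearman's rho = 1, and r was 0.97 after the means of the series were removed. Mdr65 and nrv2 followed (r = 0.92, rho = 0.83, and r = 0.82 without series means), then Gli and Nrx-IV (r = 0.82, rho = 0.77, and r = 0.80). loco was opposite to nrv2 (r = -0.95, rho = -0.89, and r = -0.87 without series means) and to Mdr65 (r = -0.86, rho = -0.83, and r = -0.68). loco was also negative with moody, the receptor it acts with, although weakly (r = -0.42, and r = -0.17 without series means). Tret1-1, the perineurial gene, was negative with the septate junction genes Gli (r = -0.57) and Nrx-IV (r = -0.30) and with moody (r = -0.27), and positive with nrv2 (r = 0.52), likewise of the septate junction, and with Mdr65 (r = 0.21). These values describe 6 libraries that share depth, composition and series, and are given without a test.

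**Figure D4:**
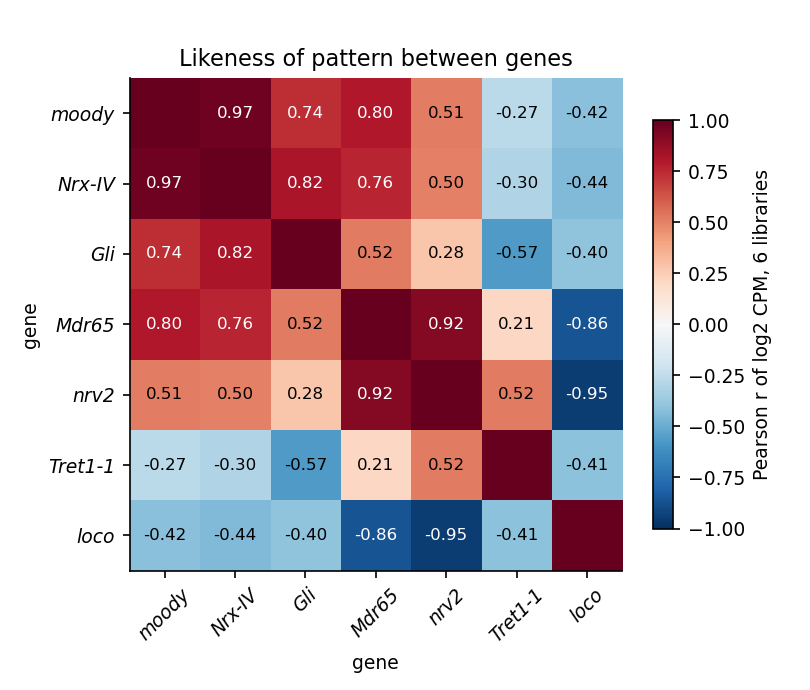
Pearson r of log2 CPM over the 6 libraries for each pair of the 7 genes, in colour and as a number. moody, Nrx-IV, Gli and Mdr65 are positive with one another (0.52 to 0.97), while loco is negative with all 6 others (-0.40 to -0.95).

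Very close patterns were common in a set of 6 libraries. The number of other genes with an r of at least 0.9 was 1151 for loco, 688 for nrv2, 534 for Mdr65, 241 for Nrx-IV, 122 for moody, 95 for Gli and 23 for Tret1-1, so Tret1-1 had the least shared pattern. By the rule of the 2 closest genes, moody was most like CG11893 (r = 0.994) and CG43085 (0.993), and loco most like CG5641 and ttm50 (both 0.998). Mdr65 was most like GstT2 (0.999) and DIP2 (0.997), and nrv2 most like CG8726 (0.996) and CG7149 (0.995). Nrx-IV was most like spag (0.996) and santa-maria (0.994), Gli most like FBgn0029584 (0.997) and csul (0.986), and Tret1-1 most like ATbp (0.976) and CG11686 (0.964). All are values of r over 6 libraries among 10270 genes tested.

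Other genes of the barrier were taken from lists. Among 21 other septate junction genes, all tested, edgeR called none at an adjusted p of 0.05 (1.54% of all genes), and 4 had an unadjusted p under 0.05 (24.5% of all genes). Their median log2 difference was 0.09, beside 0.00 for all genes. The 4 genes, chosen after their values were seen, were l(2)gl (0.42, SE 0.14), kune (0.33, SE 0.12), M6 (0.32, SE 0.13) and pck (-0.36, SE 0.14). kune and pck both encode claudin-like proteins of the septate junction, and their differences had opposite signs. cora, a cytoplasmic partner of Nrx-IV, stood at 270.1 TPM with a log2 difference of -0.07 (SE 0.10).

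The 5 genes of G protein signalling listed beside moody and loco all had positive differences, without any passing over all genes (adjusted p from 0.11 to 0.22 in edgeR). Their median log2 difference was 0.41, beside 0.00 for all genes tested, of which 50.1% were positive. An unadjusted p under 0.05 was found for 4 of the 5, beside 24.5% of all genes tested. Ggamma1 and Gbeta13F, which encode G protein gamma and beta subunits, had differences of 0.41 (SE 0.17) and 0.34 (SE 0.13). Galphao and Pka-C1, the latter the catalytic subunit of protein kinase A, had 0.46 (SE 0.17) and 0.50 (SE 0.14), and Galphai, an alpha subunit on which loco acts, had 0.24 (SE 0.11), the last 3 genes being outside the naming rule and given to complete the list. The difference of loco was negative and that of Galphai positive, and neither passed over all genes. These subunits are also used in neurons, and the 6 neuron markers likewise all had positive differences, with a median of 0.25 and a summed level of 4376 to 5451 CPM in the DMAP1RNAi103734 series and 5307 to 6953 CPM in the DMAP1RNAi63666 series. The part of neuronal RNA in these values was not tested.

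Of 26 further transporters and lipoprotein receptors of barrier glia, 23 were tested, none was called by edgeR over all genes (1.54% of all genes tested) and 3 had an unadjusted p under 0.05 (24.5% of all genes tested). Their median log2 difference was 0.03, beside 0.00. The most abundant was path, an amino acid transporter, at 1091 TPM with a log2 difference of 0.33 (SE 0.21), followed by MFS3, a transporter of the major facilitator family, at 532 TPM with -0.14 (SE 0.12). The 3 genes, chosen after their values were seen, were Indy (0.44, SE 0.13), which takes up citrate, and the amino acid transporter genes mnd (0.33, SE 0.12) and sbm (0.33, SE 0.10). chk could not be measured, since 100% of its exon bases are shared with another gene on the same strand and it received 0 counts.

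Markers of other cells moved between the libraries in which Mdr65 and nrv2 were highest or lowest. In library 1 of the DMAP1RNAi63666 series, where Mdr65 and nrv2 were highest, the summed neuron markers (6953 CPM) and astrocyte-like glia markers (5009 CPM) were also highest. In library 2 of the DMAP1RNAi103734 series, where Mdr65, nrv2 and Tret1-1 were lowest, both lists were lowest (4376 and 3809.8 CPM), and fat body markers were highest. Other lists ran the opposite way between these libraries. The pan-glial list summed to 268 CPM, its lowest, in the former and to 347 CPM, its highest, in the latter. Ring gland markers likewise summed to 54.1 and 131 CPM, and muscle markers were lowest (144 CPM) in the former. The pan-glial list, given in full, holds repo, gcm, gcm2, pnt, ttk and Egfr. Egfr and pnt had higher mean CPM than repo in both series, so the sum does not follow repo alone. It was not tested as a measure of glial RNA. The highest value of repo, 79.6 CPM, lay in the DMAP1RNAi63666 series, beside at most 79.2 CPM in the other. The neuron markers did not follow Mdr65 and nrv2 in every library. In library 3 of the DMAP1RNAi63666 series, second highest for both genes in CPM (897 and 1280.3), neuron markers summed to 5307 CPM. This lay below the 5451 CPM of library 1 of the DMAP1RNAi103734 series, where Mdr65 was at 704 CPM. The astrocyte-like glia markers summed to 4343 and 3977 CPM in these libraries, in the same order as both genes. Over all libraries their sum ranked as nrv2 did in CPM, though not as Mdr65 did. Without library 2 of the DMAP1RNAi103734 series the log2 difference was 0.35 for Mdr65, 0.23 for nrv2 and -0.25 for loco, and without library 1 of the DMAP1RNAi63666 series it was 0.28, 0.22 and -0.21. Tracheal markers, whose tissue also has septate junctions, were low, at 93.8 to 105 CPM in the DMAP1RNAi103734 series and 76.2 to 99.1 CPM in the other for 5 summed genes, and no marker gene of the lists was at 0. The sum of the imaginal disc markers was even, at 219.8 to 237 CPM in the DMAP1RNAi103734 series and 220.2 to 225 CPM in the other. Its largest part was bi, at means of 106 and 108 CPM, and whether this RNA came from discs or from the brain was not tested. Within the list gl, chosen after its values were seen, was less even, at 5.62 ± 3.14 and 4.6 ± 1.12 CPM (SD, n = 3). The part of any of these cells in the values of the 7 genes was not tested.

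**Figure D5:**
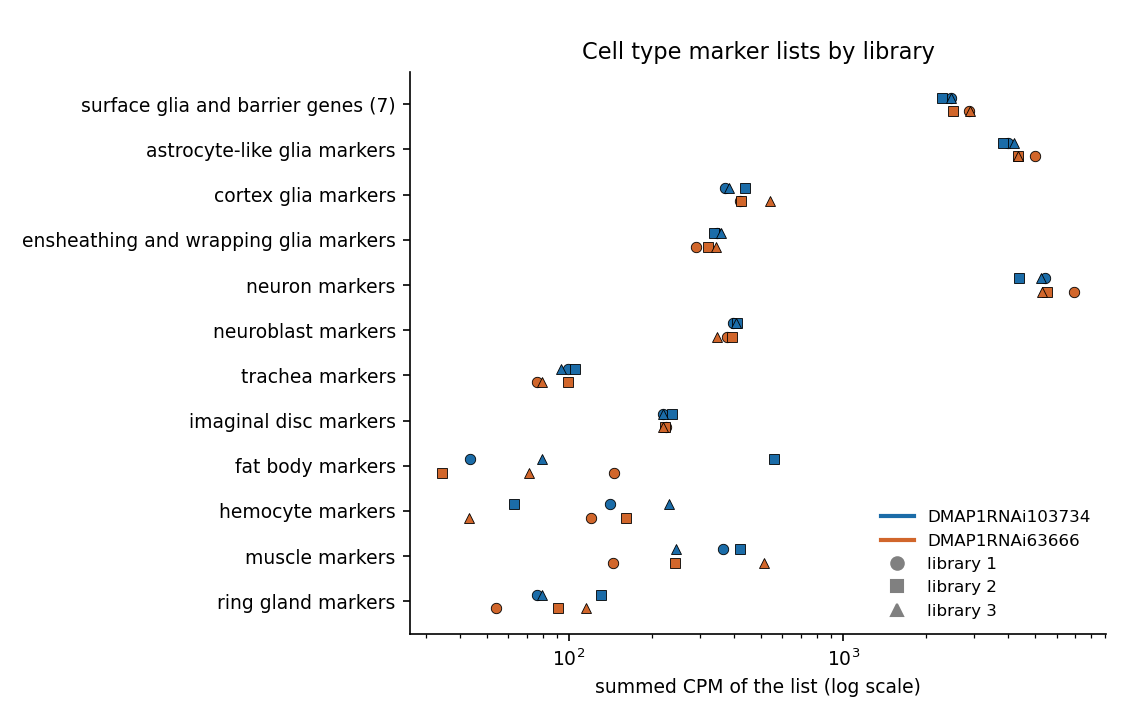
Summed CPM (log axis) of the 7 genes and of marker lists of other cell types in each library, with the series in colour and the library number as symbol. Neuron markers run from 4376 to 6953 CPM, and fat body markers spread most, from 34.4 to 557 CPM.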

How the data were processed

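The authors deposited raw counts per gene, made with featureCounts 1.6.5 per the file headers, with strand option 2, a minimum overlap of 10 bases and the BDGP6 release 84 annotation. Per the labels the RNA was polyadenylated. No aligner is named in the labels or headers. Of the table, 6 columns matched the labelled group, though not single samples, and 3 further columns of per-sample values matched no labelled sample and were not used. Gene lengths are those of the deposited table. Symbols came from gene identifiers for 17216 genes and from span overlap of at least 0.8 for 216, both with Ensembl release 115. CPM, TPM and their SD were computed from the counts. The series were compared with edgeR 4.0.16 (quasi-likelihood, TMM factors, at least 10 counts in at least 3 libraries, Benjamini-Hochberg over 10270 genes, threshold 0.05), which was tested on simulated data. DESeq2 1.42.0, other scalings, no filter, a block and left-out libraries were alternatives. log2 CPM used a prior count of 2. Each SE of an edgeR difference was computed as the absolute log2 difference over the square root of edgeR's F statistic. Each 95% interval was that SE times a t quantile on either side of the difference. The 7 genes and all lists were chosen with earlier results of these data known. Named genes are the 7 genes, the 2 genes of highest r with each, the 2 of highest mean TPM in the barrier and pan-glial lists and any gene of these lists that passed. Genes outside this rule are marked in the text. Ratios to repo and 4 older symbols of listed genes were added after the data were seen.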

Additional observations from a re-analysis of the deposited data

How the results depend on the processing

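The count of genes called between the series was 158 with edgeR, 956 with DESeq2 and 57 to 469 when 1 library was left out, the highest without library 2 of the DMAP1RNAi63666 series. With library numbers as a replicate block it was 276. No label says whether the numbers pair the libraries. The deviations of same-numbered libraries from their series means correlated at 0.24, -0.21 and -0.26, which cannot settle this with 3 libraries per series. In all 11 alternatives none of the 7 genes was called, the lowest adjusted p being 0.053 for Mdr65, and the direction of each gene was kept except for Tret1-1, which ranged from -0.03 without library 2 of the DMAP1RNAi103734 series to 0.23 without its library 3. The order of the genes by level changed in 2 positions with CPM in place of TPM, where loco passed Gli because length is not divided out, and in none of the other alternatives for levels. Mdr50 and Tret1-2 had too few counts to be tested. The causes of the other changes were not tested.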

Other observations

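Other glial classes can be set beside the surface glia genes. The astrocyte-like genes Gs2, a glutamine synthetase, and Gat, a GABA transporter, stood at 2227 ± 96.1 and 837 ± 247 TPM (SD, n = 6), beside 769.5 ± 90.7 TPM for nrv2, the highest of the surface glia genes. Between the series, Gat had a log2 difference of 0.64 (SE 0.20), alrm 0.38 (SE 0.12), Eaat1 0.22 (SE 0.11), Gs2 0.08 (SE 0.11) and e -0.14 (SE 0.13), none past an adjusted p of 0.05 in edgeR. zyd, a cation exchanger gene of cortex glia, had 0.35 (SE 0.10). The 3 ensheathing and wrapping glia genes had a median of -0.02, with 2 negative. Of the 6 genes of the pan-glial list 4 had negative differences, among them gcm, the switch gene of glial fate (-0.33, SE 0.13), and Egfr (-0.30, SE 0.10), also without passing. The sum of the pan-glial list was not tested as a measure of glial RNA. The summed level of the pan-glial list was 299 to 347 CPM in the DMAP1RNAi103734 series and 268 to 304 CPM in the other. That of the 7 surface glia genes was 2292 to 2467 and 2506 to 2907 CPM. Without nrv2 and Mdr65, the sum of the other 5 was 646 to 700.3 and 625 to 729 CPM, and the series overlapped. pnt, an ETS transcription factor gene and the second most abundant of the pan-glial list after repo, stood at 34.1 TPM with a difference of 0.06. Apart from pnt, the genes in this paragraph were chosen after their values were seen.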
